A study of Mus musculus with 11 samples.

Results

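Newborn mouse hearts carrying an Hmgn5 transgene were compared with newborn wild-type hearts on 5 of the series' 11 Affymetrix mouse expression arrays, 3 transgenic and 2 control, which are all the newborn arrays there are. The arrays were chosen by their labels (genotype and age) and by no measured value. All mice were C57BL/6. The transgenic group carried a full-length mouse Hmgn5 cDNA with a FLAG tag behind a floxed LacZ cassette under the CAG promoter, and alphaMHC-cre, which removes the cassette in heart muscle cells. The control group was labelled wild-type, so the presence of cre and the presence of the Hmgn5 transgene cannot be told apart. RNA came from the left ventricle according to the series' design text, while the tissue label reads heart. The arrays are labelled biological replicates. Whether 1 array is 1 pup or a pool, and how many founder lines were used, is not given in the sources used here. The other 6 arrays, 3 transgenic and 3 control adult hearts of the same genotypes, enter below only as a comparison.

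HMGN5 is a nucleosome-binding protein of the high mobility group N family that counteracts linker histone H1 in the compaction of chromatin, and mice with excess HMGN5 serve to ask what loosened chromatin does to a tissue. The newborn heart is a muscle in transition. Its myocytes are leaving the cell cycle, turning from glycolysis to fatty acid oxidation, and exchanging fetal contractile and stress-programme transcripts for adult ones. The comparison of newborn groups asks which transcripts differed at this age, and, as important with 5 arrays, how large a difference these arrays would still allow for each gene.

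Values are log2 array signals, and 1 unit is a 2-fold difference. Each of 18194 genes was represented by 1 probe set, and the 5 newborn arrays were fitted alone with limma. No newborn gene passed a Benjamini-Hochberg adjusted p of 0.05 in limma, so 0 of 18194 were called (percent called 0). The smallest adjusted p was 0.353. At an unadjusted p under 0.05 there were 910 genes (5%), 498 higher (2.74%) and 412 lower (2.26%) in transgenic hearts. With an intensity trend and robust variance in the same tool 1 gene was called, Acta1, and with the replicate number as a block 1 other gene, Tmem87a. All 3 transgenic arrays stood above both control arrays for 2019 genes (11.1%) and below both for 1789 (9.83%). On average 9346 genes (51.4%) read higher and 8844 (48.6%) lower in transgenic hearts. The counts of members below are to be read against these shares.

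The newborn differences were small across the whole array. Over all genes the median difference, transgenic minus control, was 0.004, and the 1st and 99th percentiles were -0.34 and 0.38. Only 7 genes differed by more than 2-fold on average, 3 higher and 4 lower, beside 591 in the adult comparison, 388 higher and 203 lower. The median residual SD per gene was 0.106 in newborns and 0.211 in adults. Values of this kind are scaled to like distributions (newborn array medians 5.12 to 5.14), so a shift of most transcripts together would not be seen in them.

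Acta1, the skeletal muscle alpha-actin that the fetal and the stressed heart express, had the smallest p of all 18194 genes. It read 11.56, 11.73 and 11.75 on the transgenic newborn arrays and 10.78 and 10.83 on the control arrays. The groups did not overlap, and the gap between them was wider than the spread within either. The difference was 0.87 (SE 0.09; 95% interval 0.66 to 1.09), a 1.83-fold higher signal with an interval of 1.58 to 2.12. Its limma adjusted p was 0.353 in the newborn fit and 0.00729 with the intensity trend and robust variance. The pair of arrays that read as female differed by 0.779 and those that read as male by 0.908. Across the 15 alternatives run for it, its difference lay between 0.84 and 0.93. In adult hearts Acta1 was called, at 13.51 against 11.01 on average, a difference of 2.49 (SE 0.35, adjusted p = 0.0216). The newborn interval excluded that adult size. The test of the difference between ages gave -1.62 (SE 0.43, adjusted p = 0.147) and did not pass.

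A stretch of the Acta1 promoter is shown because serum response factor acts on this gene through CArG boxes, the motif searched in the promoters of the 24 genes with the smallest p. The sequence is RefSeq's, in build GRCm38.p6 at chr8:123894829-123894858, on the gene's minus strand and 5′ to 3′. The capitals mark the CArG box, which starts at position -73 from the annotated gene start.
Acta1: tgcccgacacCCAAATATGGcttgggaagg
Of the 24 leading genes 17 had a promoter entry of 300 bases, and Acta1 was the only 1 of them with the motif. On both strands it occurred in 535 of 32851 promoters (1.63%). A match of letters is a description and no measurement of binding.

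**Figure D1:**
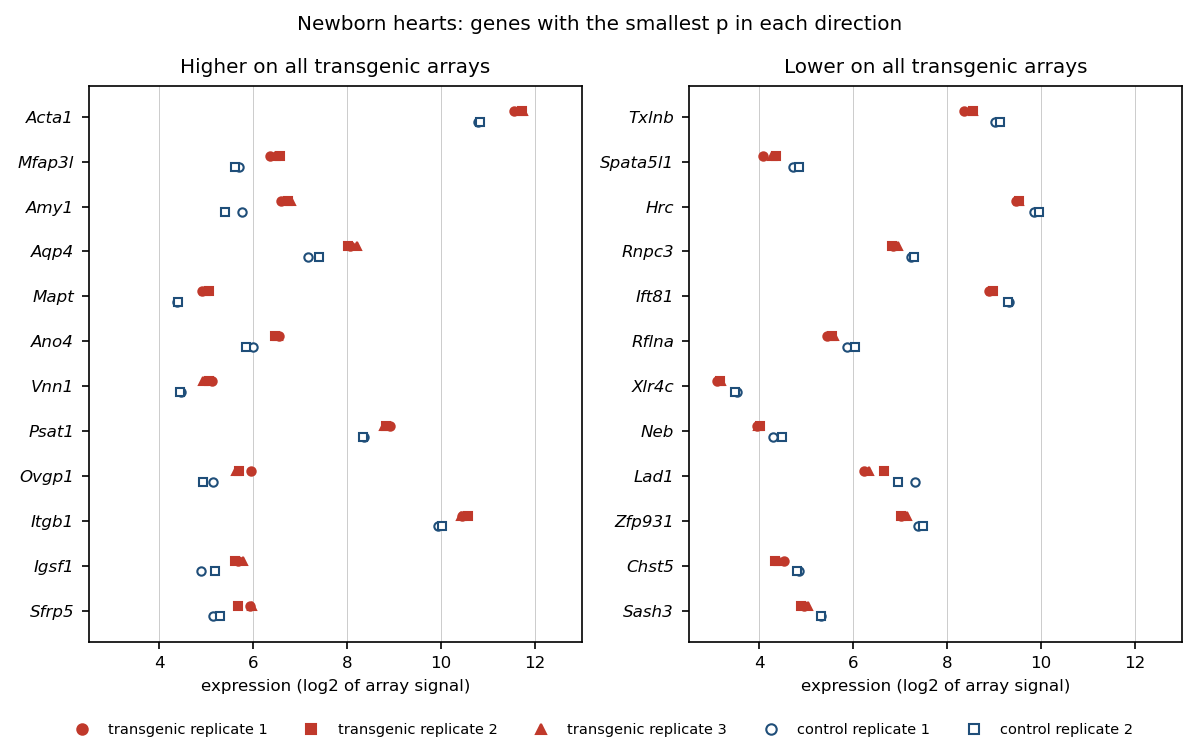
Log2 signal on each of the 5 newborn arrays (x axis) for the 12 genes with the smallest p among those higher on all transgenic arrays (left) and the 12 among those lower (right). Filled red symbols are the 3 transgenic arrays and open blue symbols the 2 control arrays. No gene shown passed an adjusted p of 0.05, and Acta1 stands at 11.56 to 11.75 against 10.78 and 10.83.

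Amy1 and Mfap3l were, with Acta1, the only genes whose whole 95% interval lay beyond 1.5-fold. Amy1 encodes salivary-type amylase. It read 6.60, 6.74 and 6.79 on transgenic arrays and 5.77 and 5.40 on controls, a difference of 1.12 (SE 0.13; interval 0.82 to 1.43; limma adjusted p = 0.353). Mfap3l read 6.36, 6.56 and 6.47 against 5.69 and 5.61, a difference of 0.81 (SE 0.09; interval 0.60 to 1.03; limma adjusted p = 0.353). The groups did not overlap for either gene. Neither was called in adults, where the differences were 0.23 for Amy1 and -0.09 for Mfap3l. The other Mfap3l probe sets read under 4.3 and differed by 0.15 and 0.19.

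Among the other genes with small p and higher transgenic signals were membrane and metabolic genes. Aqp4, the water channel aquaporin 4, read 8.06, 8.02 and 8.20 on transgenic arrays and 7.16 and 7.40 on controls, a difference of 0.81 (interval 0.56 to 1.06). Another Aqp4 probe set differed by 0.68 without overlap, and one at signals under 4 by -0.05. Itgb1, the beta 1 integrin subunit that anchors cells to matrix, read 10.44, 10.58 and 10.43 against 9.93 and 10.01. Its difference of 0.51 (interval 0.31 to 0.71) stood beside 0.46 without overlap and 0.23 with overlap on its other well-detected probe sets. Psat1, an aminotransferase of serine synthesis, read 8.91, 8.82 and 8.78 against 8.37 and 8.33, a difference of 0.49 (interval 0.30 to 0.68), with 0.37 and no overlap on its other probe set. These 3 genes showed the same separation on more than 1 probe set, while 3 further Itgb1 probe sets at signals under 3 differed by -0.125 to -0.001. limma's adjusted p was 0.504 for Aqp4 and 0.913 for both Itgb1 and Psat1.

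The remaining leading genes with higher transgenic signals were measured at low levels. Mapt (tau), Ano4 (an anoctamin), Vnn1 (the pantetheinase vanin 1), Ovgp1 (an oviductal glycoprotein), Igsf1 and the Wnt antagonist Sfrp5 read between 4.37 and 6.55 on the 5 arrays and differed by 0.59 to 0.73. Their separation was not shared by other probe sets in every case. For Sfrp5 the other probe set differed by 0.02, for Igsf1 the others by -0.11 and 0.06, and for Mapt the others by -0.22, -0.05 and 0.32. For Vnn1 the other probe set differed by 0.48 without overlap.

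Txlnb led the genes with lower transgenic signals. It encodes beta-taxilin, a coiled-coil protein of muscle, and read 8.35, 8.55 and 8.55 on transgenic arrays and 9.02 and 9.13 on controls. The difference was -0.59 (SE 0.10; interval -0.82 to -0.36; limma adjusted p = 0.913), with -0.31 and no overlap on its other probe set. Hrc, the histidine-rich calcium-binding protein of the sarcoplasmic reticulum, read 9.46, 9.54 and 9.54 against 9.85 and 9.96, a difference of -0.39 (interval -0.58 to -0.20). In adults Hrc was called lower, by -1.19 (SE 0.13, limma adjusted p = 0.00822), and the effect differed between ages by 0.80 (SE 0.15, limma adjusted p = 0.0446). Ift81, a subunit of the intraflagellar transport complex, read 8.89, 8.98 and 8.96 against 9.32 and 9.29, a difference of -0.36 (interval -0.54 to -0.18), with -0.23 and no overlap on another probe set. Its adult difference was -2.38 (SE 0.45, limma adjusted p = 0.0479), a size outside the newborn interval. The groups did not overlap for any of these 3 genes.

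The other 9 of the 12 lower genes were Spata5l1, the minor spliceosome gene Rnpc3, Rflna, Xlr4c, nebulin (Neb), ladinin (Lad1), Zfp931, Chst5 and Sash3. Their differences ran from -0.36 to -0.73, with limma adjusted p of 0.913 each. The Lad1 values of 6.23, 6.65 and 6.34 against 7.33 and 6.96 gave the largest difference of the 9. None of the 9 was called in adults.

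The Hmgn5 probe set itself read 8.56, 8.84 and 8.69 on the transgenic newborn arrays and 8.85 and 8.81 on the controls. The difference of -0.13 (SE 0.10; interval -0.37 to 0.10; limma adjusted p = 0.932) excluded a 1.5-fold higher signal. Hmgn5 has 1 probe set with a single gene symbol here. Whether that probe set reads any part of the transgene is not given in the sources used here, so the genotype labels have no check here and every direction below and above rests on them.

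Left ventricular tissue was checked against markers. The ventricular light chain Myl2 read 14.16 to 14.21 and the ventricular factor Irx4 8.81 to 9.17 on the 5 arrays. Atrial markers were also high: Myl4 read 13.01 to 13.30, Myl7 13.25 to 13.52 and sarcolipin (Sln) 11.22 to 11.80. The mean of these 3 was 12.50 to 12.87 on newborn arrays and 6.52 to 12.24 on adult arrays. By adult group it was 10.528, 6.586 and 6.515 on transgenic arrays and 10.097, 10.382 and 12.235 on controls. Kcnj3 and Nppa, read below, are also on the list of atrial markers. The part of atrial tissue in the adult differences was not tested. Pairs of newborn arrays correlated at 0.994 to 0.997. Xist and Y-linked transcripts put replicate 1 of either group on the female side, and the remaining 3 newborn arrays on the male side. Xist on the male-read arrays was 8.08, 6.90 and 8.65, against 5.44 and 6.13 on the adult male arrays. 18S ribosomal control signals were 10.05 to 10.22 on transgenic arrays and 10.09 and 10.53 on controls.

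The question of which changes the data exclude was answered gene by gene. The 95% interval of a newborn difference had a median reach to either side of 0.232 (10th to 90th percentile 0.186 to 0.354). It excluded a 1.5-fold change in both directions for 17006 of 18194 genes (93.5%), a 2-fold change for 18006 (99%) and a 4-fold change for 18175 (99.9%). A rise of 2-fold was not excluded for 121 genes and a fall of 2-fold for 86, together 188 genes. With p-values for equivalence adjusted over all genes by the Benjamini-Hochberg method, 17430 genes (95.8%) lay within 1.5-fold and 18078 (99.4%) within 2-fold. A 99% interval excluded a 2-fold change for 17748 genes.

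Smaller changes lay inside the interval of many genes. The 95% interval excluded a 1.25-fold change for 49.3% of genes, 1.2-fold for 25% and 1.1-fold for 0%. In adults, with 1 more array but the wider spread, a 2-fold change was excluded for 83.7% and a 1.5-fold change for 51.7%. By mean signal, the share with 1.5-fold excluded ran from 89.6% of genes at 4 to 6 to 97.3% of genes under 4. Signals under 4 lie near the bottom of the array's range, where a change of transcript moves the signal little, so there the interval bounds the signal.

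**Figure D2:**
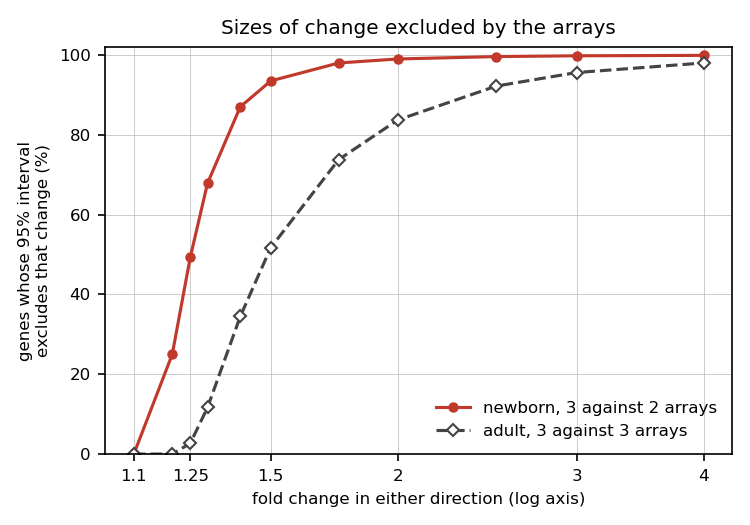
Share of the 18194 genes whose 95% interval excludes a change of the size on the x axis (fold, log axis) in both directions, for the newborn comparison (filled circles) and the adult comparison (open diamonds). At 1.5-fold the shares are 93.5% in newborns and 51.7% in adults, and at 2-fold 99% and 83.7%.

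The 373 genes called in adults by limma on the 6 adult arrays (2.05%; 256 higher, 1.41%, and 117 lower, 0.643%) were then read in newborns. The newborn interval excluded the adult estimate for 370 of the 373 (99.2%), and a change of 0.5 times the adult size for 315. Over all 18194 genes, called in adults or not, these counts were 6708 and 3206. The 373 were chosen for their adult values and the error of the adult estimate is left out, so the counts are a description and no test. In the test of the difference between ages, given below, 120 of the 373 passed. Of the 373 adult-called genes 41 had a mean newborn signal under 5. The interval lay within 2-fold for 354 and within 1.5-fold for 273. The 3 genes whose newborn interval held the adult estimate were Fkbp5, Pcolce2 and Ptgs2. Leaving out 1 adult array changed the number of adult calls to 58 (without transgenic replicate 1), 70 (transgenic 2), 895 (transgenic 3), 144 (control 1), 61 (control 2) or 121 (control 3). In these sets the newborn interval excluded 98.3% to 100% of the adult estimates.

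Most of the adult-called genes had newborn differences of the same sign, at a small fraction of the size. The sign matched for 266 of 373 (71.3%), beside 53.7% of all genes. The 256 adult-higher genes had a median newborn difference of 0.10 and a median adult difference of 1.33, and the 117 adult-lower genes -0.06 and -1.19. Of the 256, 24 had a newborn interval wholly above 0 and 2 wholly below, and of the 117, 6 and 11. Over all 18194 genes 498 were wholly above and 412 wholly below.

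The 12 genes with the largest adult change in each direction were taken among genes called in adults. Their adult groups did not overlap, and clone names were passed over. All 24 had newborn intervals that excluded the adult size. Cilp, the cartilage intermediate layer protein of fibroblasts, read 3.80, 3.97 and 3.90 on transgenic and 3.91 and 3.99 on control newborn arrays. Its difference was -0.05 (interval -0.26 to 0.15), beside 4.79 in adults (SE 0.46, limma adjusted p = 0.00553). Periostin (Postn), a matrix protein of activated fibroblasts and of the growing heart, stood at the adult transgenic level in both newborn groups, at 12.47, 12.44 and 12.21 against 12.23 and 12.23, a difference of 0.14 (interval -0.10 to 0.38). Its adult means were 12.03 in transgenic and 8.85 in control hearts.

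Other large adult changes were bounded as well. The newborn intervals were -0.11 to 0.38 for the nicotinamide riboside kinase Nmrk2, -0.80 to 0.62 for galectin 3 (Lgals3), -0.19 to 0.75 for the NADPH oxidase Nox4 and -0.15 to 0.31 for the protease inhibitor Timp1, whose adult differences were 3.74, 4.15, 3.40 and 3.15. Among genes lower in adults, they were -0.16 to 0.23 for Ano10, -0.15 to 0.36 for the tubulin-modifying enzyme Ttll1, -0.45 to 0.20 for the potassium channel subunit Kcnj3 and -0.35 to 0.02 for Kcnd2, whose adult differences were -2.93, -2.81, -2.49 and -2.36.

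Besides Ift81, 2 of the 24 had the adult direction in newborns with groups that did not overlap and an interval off 0. The ubiquitin hydrolase gene Uchl1 read 8.39, 8.34 and 8.29 against 8.08 and 7.93, a difference of 0.33 (interval 0.13 to 0.54) beside 3.66 in adults. The muscle ribosomal protein gene Rpl3l read 5.05, 5.45 and 5.29 against 5.66 and 5.67, a difference of -0.40 (interval -0.69 to -0.11) beside -2.50. Both had limma adjusted p of 0.914 in newborns. For 2 more of the 24 the newborn spread was too wide for a bound near 2-fold: Ltbp2, a latent TGF-beta binding protein, at -0.19 to 1.39, and the peptidase Mme, at -2.14 to 1.09.

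**Figure D3:**
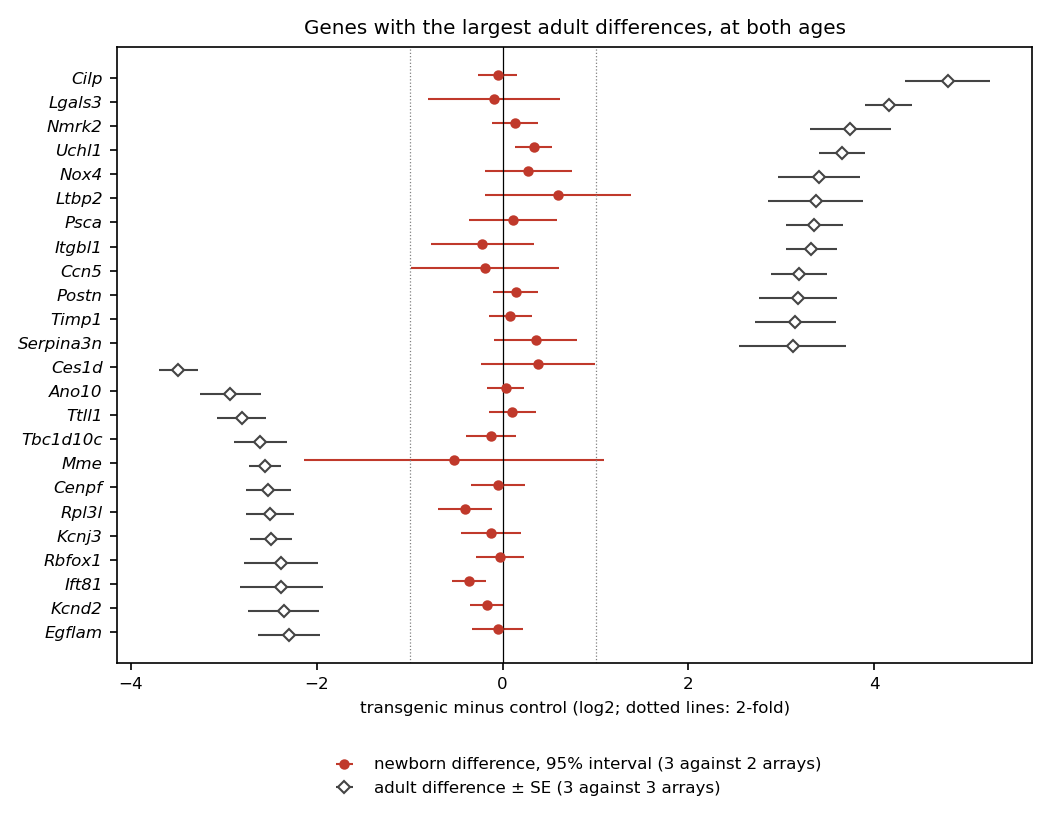
Transgenic minus control difference (log2, x axis) for the 12 genes with the largest rise and the 12 with the largest fall in adult hearts. They were taken among genes called in adults whose adult groups did not overlap. Red points are newborn differences with 95% intervals and open diamonds adult differences with the standard error. Newborn points lie between -0.52 (Mme) and 0.60 (Ltbp2) while adult points reach 4.79 (Cilp) and -3.49 (Ces1d).

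Whether the effect itself differed between ages was tested in a fit over all 11 arrays. It differed for 125 genes (0.687%), with a lower effect in newborns for 81 and a higher one for 44, and 120 of the 125 were among the 373 adult calls. The tested difference holds the adult effect from the same adult arrays, so this overlap is partly built in. The count of 125 rests on few arrays. Without 1 newborn array it was 73 (transgenic replicate 1), 48 (transgenic 2), 39 (transgenic 3), 6 (control 1) or 35 (control 2). Without 1 adult array it was 79 (transgenic 1), 540 (transgenic 3), 202 (control 1) or 59 (control 2), and 108 (transgenic 2) and 119 (control 3) without the other two.

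The signals of the contractile apparatus lay within narrow bounds. Of 21 contractile and Z-disc genes 0 were called and all 21 had intervals within 1.5-fold, beside 93.5% of all genes. The cardiac myosin heavy chains read 14.01 to 14.05 (Myh6) and 13.74 to 13.95 (Myh7), with differences of -0.02 (interval -0.19 to 0.16) and 0.02 (-0.19 to 0.24). These signals lie close to the highest newborn signals of the array, 14.22 to 14.32, where a change of transcript may move the signal little, so there too the interval bounds the signal. Myh7, the fetal form in mouse ventricle, had an adult difference of 2.58 that did not pass (limma adjusted p = 0.108). The cardiac troponin I gene Tnni3 differed by -0.01 (-0.20 to 0.17) and its slow fetal partner Tnni1 by -0.07 (-0.27 to 0.13). Only Tcap, the titin cap protein, had an interval off 0, at -0.27 (-0.46 to -0.08), with a limma adjusted p of 0.914.

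The fetal and stress programme, known for its induction in the loaded adult heart, was for the most part bounded below 2-fold. Of its 15 genes 0 were called in newborns and 8 were called higher in adults, and 14 newborn intervals lay within 2-fold, all but that of Acta1. The atrial natriuretic peptide gene Nppa read 13.83, 13.82 and 13.70 on transgenic and 13.55 and 13.54 on control arrays, without overlap. Its difference was 0.24 (interval 0.04 to 0.43; limma adjusted p = 0.914), against 2.35 in adults, and these values too lie close to the top of the array's range. The brain natriuretic peptide gene Nppb spread widely in both groups, at 12.51, 13.11 and 12.49 against 13.23 and 12.20, with an interval of -0.77 to 0.75. Ankrd23, a titin-binding stretch-response protein, went the other way, at 7.38, 7.67 and 7.71 against 8.32 and 7.91, a difference of -0.53 (interval -0.90 to -0.16), beside 0.97 in adults. Smooth muscle alpha-actin (Acta2), the relative of Acta1, differed by 0.00 (interval -0.17 to 0.18).

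Extracellular matrix genes had 0 of 37 called in newborns and 16 called higher in adults, and 33 had newborn intervals within 2-fold. The median newborn difference was 0.10, beside 0.004 over all genes, and 6 of the 37 (16.2%) had all transgenic arrays above both controls, beside 11.1% of all genes. The median was 0.02 without control replicate 2 and 0.22 without transgenic replicate 3 or with the replicate block. Thbs4, a thrombospondin of the matrix, had the clearest gap. It read 7.82, 8.09 and 7.89 against 7.47 and 7.37, a difference of 0.51 (interval 0.27 to 0.76; limma adjusted p = 0.913), beside 2.83 in adults. Its relative Comp differed by 0.37 (0.06 to 0.69), tenascin C (Tnc) by 0.48 (0.01 to 0.96) and fibromodulin (Fmod) by 0.43 (0.05 to 0.81). The fibrillar collagens were bounded, with -0.19 to 0.37 for Col1a1 and -0.23 to 0.22 for Col3a1. For elastin (Eln), Lox, Ltbp2 and Thbs1 a 2-fold change was not excluded.

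**Figure D4:**
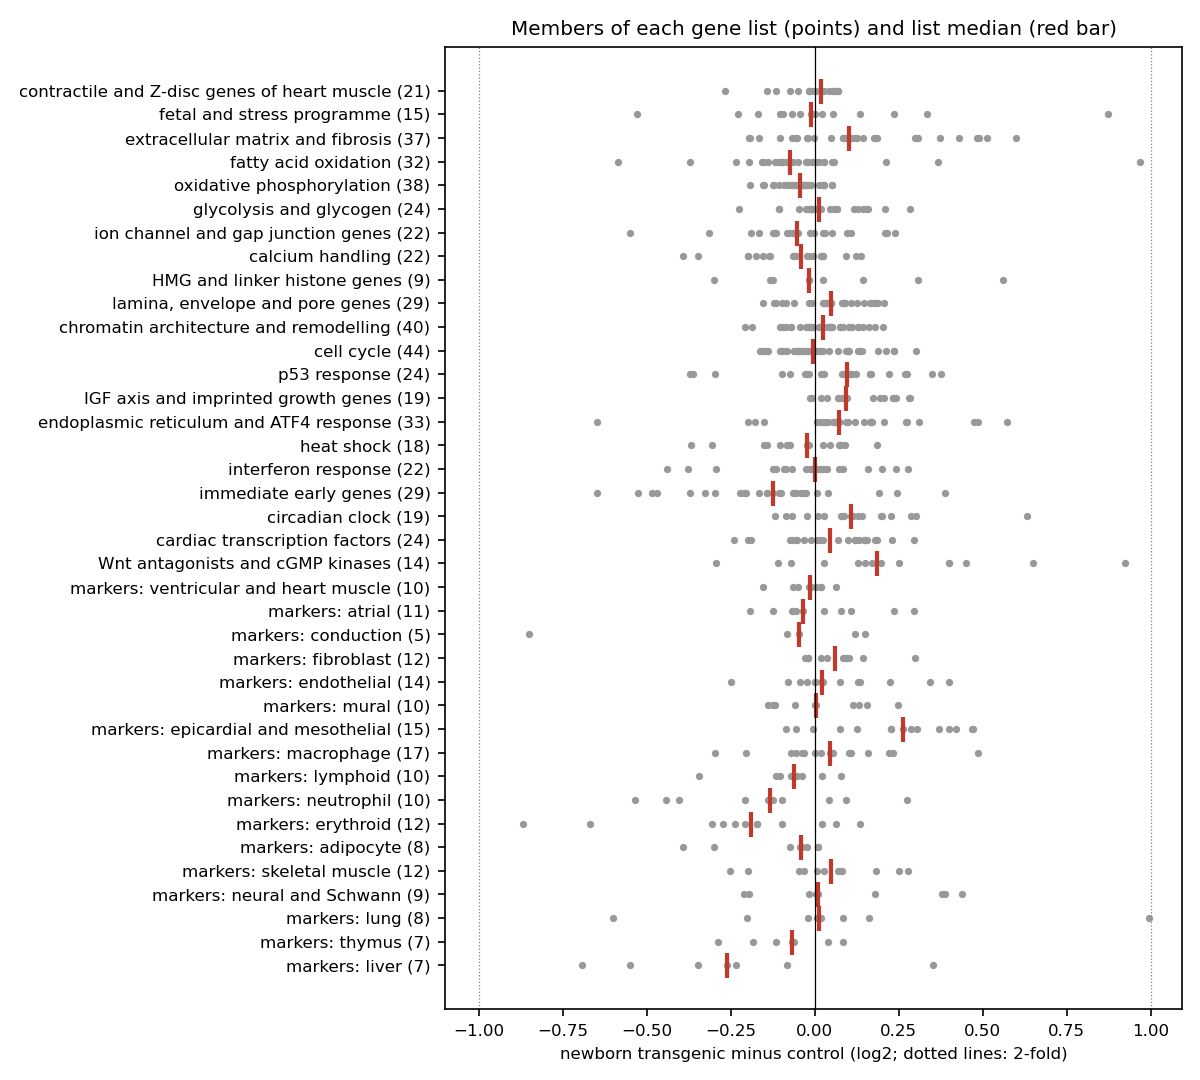
Newborn transgenic minus control difference (log2, x axis) of each measured member (grey points) and the median (red bar) for 21 gene lists and 17 marker lists, with the number of genes in brackets. List medians lie between -0.26 (liver markers) and 0.26 (epicardial and mesothelial markers), and dotted lines mark 2-fold. Both medians rest on single arrays, at 0.06 for liver without control replicate 1 and -0.003 for the epicardial list without transgenic replicate 1.

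In energy metabolism, oxidative phosphorylation and glycolysis genes were bounded tightly and fatty acid oxidation genes less so. All 38 oxidative phosphorylation genes had intervals within 1.5-fold, beside 93.5% of all genes. Of these, 31 (81.6%) read lower on average in transgenic hearts, beside 48.6% of all genes. Their median was -0.04 (-0.02 without transgenic replicate 1). All transgenic arrays lay below both controls for 13 (34.2%), beside 9.83% of all genes. The mean signals of the list overlapped, at 12.58, 12.63 and 12.68 on transgenic arrays and 12.66 and 12.70 on controls. The muscle cytochrome oxidase subunits Cox7a1, at -0.19 (interval -0.44 to 0.06), and Cox8b, at -0.15 (-0.38 to 0.07), were at the low end. Of 32 fatty acid oxidation genes 23 (71.9%) read lower, beside 48.6% of all genes, with a median of -0.07. For these 32 genes 30 intervals lay within 2-fold and 27 within 1.5-fold, lower shares than the 99% and 93.5% of all genes. The median of -0.07 was 0.03 without control replicate 2 and -0.15 without control replicate 1. Acsl6, an acyl-CoA synthetase, read 4.84, 4.49 and 4.67 against 4.02 and 3.38 on the probe set used (0.97, interval 0.50 to 1.43), and its other probe set differed by -0.03. All 24 glycolysis and glycogen genes lay within 1.5-fold. No gene of these 3 lists was called in newborns.

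Calcium handling and ion channel genes gave some of the larger differences in muscle genes. Among 22 calcium handling genes 11 (50%) had groups that did not overlap, 4 higher and 7 lower, beside 20.9% of all genes, and all 22 intervals lay within 2-fold. After Hrc the calstabin gene Fkbp1b had the largest difference, at -0.35 (interval -0.68 to -0.02), while the calcium pump gene Atp2a2 differed by 0.02 (-0.15 to 0.20). Kcne1, the accessory subunit of the slow potassium current, read 10.02, 10.30 and 10.40 against 10.88 and 10.70. Its difference was -0.55 (interval -0.86 to -0.24; limma adjusted p = 0.913), with -0.51 and no overlap on the other probe set. Cacna1c, the pore of the L-type calcium channel, differed by -0.31 (-0.54 to -0.09). Of the 22 channel and gap junction genes 5 (22.7%) had groups that did not overlap, close to the 20.9% of all genes. Of these 22, 0 were called in newborns, and 6 were called lower in adults.

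Most genes of chromatin and the nuclear envelope, the compartment in which HMGN5 acts, lay within narrow limits, as did most genes of the array. All 29 lamina, envelope and pore genes and all 40 chromatin architecture genes had intervals within 1.5-fold, beside 93.5% of all genes, with 0 called. Of the 29, 21 (72.4%) read higher, beside 51.4% of all genes, with a median of 0.05. All transgenic arrays stood above both controls for 8 (27.6%), beside 11.1% of all genes. They stood below both for 3 (10.3%), beside 9.83% of all genes. Without control replicate 2 this median was 0.02, and without control replicate 1 it was 0.09. The lamin B receptor gene Lbr differed by 0.21 (interval 0.01 to 0.40), Lmna by 0.16 (-0.03 to 0.36) and Lmnb1 by 0.18 (-0.05 to 0.41). Of the 9 HMG and linker histone genes 7 had intervals within 1.5-fold and all 9 within 2-fold. Among these 9, Hmga2, an architectural protein of proliferating fetal tissue, read 7.73, 7.47 and 7.39 against 6.97 on both controls. It differed by 0.56 (interval 0.29 to 0.83; limma adjusted p = 0.913), and by 0.55 without overlap, 0.64 with overlap and 0.07 at low signal on its other probe sets. The linker histone gene H1f2 read 11.51, 11.71 and 11.57 against 11.32 and 11.26, a difference of 0.31 (0.09 to 0.52). Its other probe sets differed by 0.14 with overlap and, at lower signal, by 0.11 without overlap. Hmgb2 differed by -0.30 (-0.61 to 0.01). Hmgn1 lay within -0.18 to 0.23 and Hmgn3 within -0.14 to 0.42.

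Growth and cell division genes showed no called member. Of 44 cell cycle genes all lay within 2-fold and 43 within 1.5-fold, with a median of -0.01 (0.02 without control replicate 1). Of 19 IGF axis and imprinted growth genes 17 (89.5%) read higher, beside 51.4% of all genes. Their median was 0.09 (0.03 without control replicate 2 and 0.18 without control replicate 1). The mean signals of the list overlapped, at 10.796, 10.595 and 10.429 on transgenic arrays and 10.552 and 10.403 on controls. Mest, at 12.15, 12.12 and 12.10 against 11.92 and 11.76, differed by 0.28 (interval 0.08 to 0.49). All 24 p53 response genes lay within 2-fold, and among them Eda2r differed by 0.37 (0.20 to 0.55).

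Genes of the endoplasmic reticulum and of the ATF4 response, which supplies amino acids under stress, had 0 of 33 called. Of the 33, 29 (87.9%) read higher in transgenic hearts, beside 51.4% of all genes, with a median of 0.07. All transgenic arrays stood above both controls for 9 (27.3%), beside 11.1% of all genes. They stood below both for 4 (12.1%), beside 9.83% of all genes. Asns, asparagine synthetase, read 8.52, 8.55 and 8.34 against 7.79 and 7.99, a difference of 0.57 (interval 0.33 to 0.82; limma adjusted p = 0.913), with 0.66 and no overlap on its other probe set. Beside Asns and Psat1, the chaperone genes Pdia6, at 0.31 (0.13 to 0.49), and Hspa5, at 0.27 (0.06 to 0.49), had intervals above 0. The stress factor Atf3 had the opposite sign. It read 6.37, 7.04 and 6.60 against 7.48 and 7.15, a difference of -0.65 (-1.13 to -0.17). Atf4 itself differed by 0.02 (-0.20 to 0.24).

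A part of the Asns promoter is shown because ATF4 acts on this gene through a composite element, here searched as TGATGNAA on both strands. The sequence is RefSeq's, in build GRCm38.p6 at chr6:7693214-7693243, on the gene's minus strand and 5′ to 3′. The capitals mark the match, which starts at position -23 from the annotated gene start.
Asns: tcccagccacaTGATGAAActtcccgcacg
These letters occurred in 1304 of 32851 promoters (3.97%) and in 0 of the 17 leading genes with an entry, Psat1 among them.

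Rapidly induced genes leaned the other way. Of 29 immediate early genes 24 (82.8%) read lower in transgenic newborn hearts, beside 48.6% of all genes, with a median of -0.12. All transgenic arrays lay below both controls for 8 (27.6%), beside 9.83% of all genes. That median was -0.07 without transgenic replicate 3 and -0.08 without control replicate 1. The mean signals of the list overlapped, at 7.273, 7.325 and 7.162 on transgenic arrays and 7.503 and 7.294 on controls. After Atf3, Ier3 read 8.63, 8.60 and 8.89 against 9.10 and 9.29, a difference of -0.48 (interval -0.76 to -0.21), and Nr4a1 differed by -0.33 (-0.62 to -0.03). For Fos, Fosl2, Egr2, Atf3 and Myc a 2-fold change was not excluded. Of 19 clock genes 15 (78.9%) read higher, beside 51.4% of all genes, with a median of 0.11 (0.04 without transgenic replicate 2). Their mean signals overlapped too, at 7.438, 7.613 and 7.494 on transgenic arrays and 7.492 and 7.293 on controls. Of 14 Wnt antagonist and cGMP pathway genes 11 read higher, with a median of 0.18 (0.10 without control replicate 2 and 0.32 without control replicate 1), and Prkg2, the type II cGMP-dependent kinase, read 5.77, 6.36 and 5.65 against 5.01 and 5.00 (0.92, interval 0.44 to 1.41). Its other probe sets differed by 1.47 without overlap and, at low signal, by -0.05. Sfrp1 differed by 0.45 (0.22 to 0.68) on the probe set used and by -0.15 to 0.10 on 4 others. All of these lists had 0 called genes.

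Variation within the groups exceeded the difference between them for a set of genes. Transgenic replicates 1 and 3 differed by more than 2-fold in 143 genes, more than any of the 6 transgenic-control pairs (31 to 98). Shox2, a transcription factor of the sinus node region, read 8.73, 7.01 and 5.80 on transgenic arrays and 8.09 and 7.98 on controls. Sox2, at 8.17, 6.98 and 5.26 against 7.45 and 7.31, and Crabp1, at 9.43, 7.82 and 6.42 against 8.20 and 8.34, were spread alike. Each of these 3 ran highest on transgenic replicate 1 and lowest on replicate 3, with both controls in between. Their intervals reached a 2-fold fall for all 3 and a 2-fold rise for Sox2 and Crabp1, while that of Shox2 ran from -2.60 to 0.90.

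Further genes divided the arrays in other ways. Elastin (Eln), at 10.88, 10.90 and 9.39 against 10.70 and 9.47, and the elastic fibre gene Fbln5, at 9.56, 9.56 and 8.05 against 9.30 and 8.12, were low on transgenic replicate 3 and control replicate 2. The glucocorticoid-induced genes Zbtb16, at 7.33, 9.39 and 7.05 against 8.57 and 6.91, and Fkbp5, at 8.38, 9.56 and 8.07 against 8.88 and 7.58, were high on transgenic replicate 2 and control replicate 1. These divisions cut across the genotype groups. The 15 epicardial and mesothelial markers averaged 7.33, 6.57 and 6.49 on transgenic arrays and 6.66 and 6.47 on controls. Of these 12 read higher in transgenic hearts, and for 6, the uroplakin gene Upk3b among them, a 2-fold change was not excluded. The 12 erythroid markers averaged 4.50, 4.64 and 4.75 against 4.94 and 4.78, and 9 of them read lower, with a median of -0.19 (-0.10 without control replicate 2). Among them was Alas2, the erythroid heme synthesis enzyme, at 6.97, 8.08 and 8.26 against 9.11 and 8.17. The part of these cells in the differences above was not tested, and fewer cells of a type cannot be told apart from less RNA per cell.

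**Figure D5:**
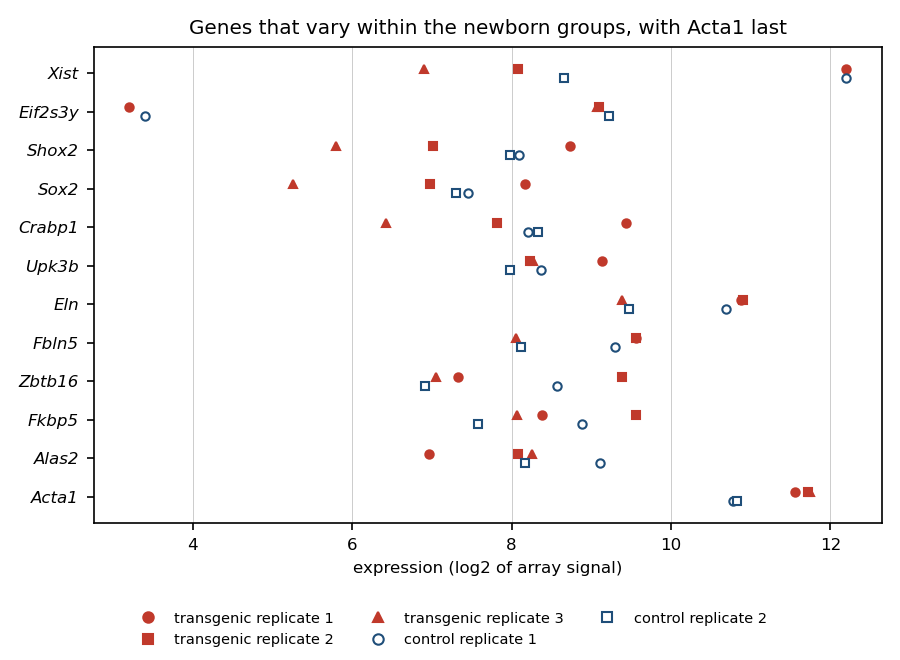
Log2 signal on each newborn array (x axis) for genes that vary within groups, with Acta1 in the last row. Filled red symbols are transgenic and open blue symbols control arrays. Xist and Eif2s3y divide the arrays by sex, Shox2, Sox2 and Crabp1 place transgenic replicates 1 and 3 at the ends, and Acta1 separates the groups.

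Of the 7 genes with a mean difference over 2-fold, 4 had groups that overlapped. Tmem87a, a Golgi membrane protein gene, read 7.30, 7.38 and 5.27 on transgenic arrays and 4.93 and 5.34 on controls, so the third transgenic array lay among the controls. Elobl read 6.53, 3.60 and 3.95 against 5.44 and 7.21, and Slc15a2, a peptide transporter gene, 4.09, 6.32 and 4.19 against 5.60 and 6.33. Xist followed sex. Amy1, Cyp51, the sterol demethylase of cholesterol synthesis, and a transcript known by a clone name were the 3 whose groups did not overlap. Cyp51 read 7.62, 8.64 and 8.12 against 7.12 and 6.79, a difference of 1.17 (SE 0.28; interval 0.52 to 1.83; limma adjusted p = 0.913).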

How the data were processed

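RNA was purified on columns, treated with DNase and labelled as biotinylated cRNA for Affymetrix arrays, per the labels' protocols. The authors deposited log2 signals of 45101 probe sets per array, and RMA, affy and limma are named without versions or roles in the submitters' processing notes. The platform annotation gave 34958 probe sets 1 symbol, 932 several and 9211 none, and 34754 matched the RefSeq gene table (GRCm38.p6) by gene ID. Per gene the single-symbol probe set with the highest mean over the 11 arrays was used (18194 genes).

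Differences of group means were fitted with limma 3.58.1 (lmFit, eBayes) in R 4.3.3 on the 5 newborn arrays, with 3 residual and 3.78 prior degrees of freedom, on the 6 adult arrays, and, for the difference between ages, on all 11. Tests were 2-sided and intervals are limma's moderated 95% intervals. Calls needed an adjusted p (Benjamini-Hochberg over all genes) under 0.05. The code was checked on simulated data. The number of arrays limits the precision, and p-values measure the spread between these arrays, which may be partly technical.

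Named genes were Hmgn5 and, among groups that did not overlap, the 12 in each direction with the smallest newborn p. For these, 4 clone names were passed over. The 12 in each direction with the largest adult change were added, among genes called in adults whose adult groups did not overlap. Up to 4 members per gene list and a fixed set of heart and chromatin genes were named too. Members of lists named beyond these, genes over 2-fold and genes that vary within groups were chosen after their values were seen. The members and lists were chosen with earlier results of these data known. The alternatives were the replicate block, sex as a factor, 1 fit over all arrays, a filter on low values (40th percentile), other probe set rules, other variance and weighting models, other scalings, a 99% interval and leaving out each array.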

Additional observations from a re-analysis of the deposited data

Results flagged for a closer look

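Genes named for a small newborn p, for a large adult change or in the fixed set were searched here. Of these, 21 had a transgene-label effect that differed between ages in limma over all 11 arrays (adjusted p under 0.05). Genes named only as members of a gene list were left out. Differences are the newborn minus the adult effect, in log2 units. The 11 genes called higher in adult transgenic hearts had the lower newborn effects, at -4.84 for Cilp, -4.25 for Lgals3, -3.61 for Nmrk2, -3.55 for Itgbl1, -3.38 for Ccn5, -3.32 for Uchl1, -3.25 for Psca, -3.13 for Nox4, -3.07 for Timp1, -3.04 for Postn and -2.12 for Nppa. The 9 genes called lower in adult transgenic hearts had the higher newborn effects, at 3.87 for Ces1d, 2.96 for Ano10, 2.91 for Ttll1, 2.48 for Tbc1d10c, 2.47 for Cenpf, 2.37 for Kcnj3, 2.24 for Egflam, 2.10 for Rpl3l and 0.80 for Hrc. For the Wnt antagonist gene Sfrp5 the effects differed by 1.20, with 0.65 (SE 0.11) in newborns and -0.55 (SE 0.12) in adults, and it was called at neither age. Its other probe set differed by 0.02 in newborns. These genes were named for small newborn p or large adult change, except Nppa, which belongs to the fixed set of heart genes, so the sizes describe them and are no independent support. Why the ages differ was not tested, and with each age on arrays of its own, age and any handling specific to those arrays cannot be told apart.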

How the results depend on the processing

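The number of newborn genes called by limma was 0 in the fit as reported and under 13 alternatives, with smallest adjusted p of 0.0671 to 0.99 when 1 array was left out, each such fit calling 0. It was 1 with the replicate block (Tmem87a, adjusted p = 0.00842, 1 residual degree of freedom) and 1 with an intensity trend and robust variance (Acta1, adjusted p = 0.00729). Whether the replicate numbers pair the newborn arrays could not be decided. The deviations of same-numbered arrays correlated at 0.10 (number 1) and -0.22 (number 2), and only 2 numbers are shared. With 2 control arrays the control deviations are mirror images of each other, so these correlations cannot exclude a pairing. Same-numbered arrays read as the same sex, female for number 1 and male for number 2. The block changed no other call of a named newborn gene. The share of genes excluding a 2-fold change was 96.4% (all arrays in 1 fit) to 99.4%, and 97.3% to 98.9% when 1 newborn array was left out.

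Adult calls were less stable. The count of 373 became 676 with the replicate block and 1290 with all 11 arrays in 1 fit, and 58 to 895 without 1 adult array. The count of adult calls whose newborn interval excluded the adult change, 370, became 1261 of 1290 with all arrays in 1 fit and lay between 58 and 883 when 1 array was left out, in step with the number of adult calls. As a share it was 96.2% to 100% under every alternative run. The 125 genes whose effect differed between ages became 53 with the replicate block and 841 with array weights, and 6 to 540 without 1 array. The cause of these shifts was not tested.

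Under the alternatives, 2816 values for named newborn genes moved by less than 1 SD of the transgenic arrays, 162 by more, and 1 (Acta1) passed the threshold. For list medians 345 moved by less and 45 by more. Averaging all probe sets per gene moved Mfap3l from 0.81 to 0.38, Aqp4 from 0.81 to 0.48, Sfrp5 from 0.65 to 0.34, Itgb1 from 0.51 to 0.175, Igsf1 from 0.66 to 0.205, Mapt from 0.60 to 0.16, Sfrp1 from 0.45 to 0.10 and Rflna from -0.43 to -0.18, among others. With 5 arrays the interval excluded a 1.25-fold change for 49.3% of genes.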

Other observations

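Some transcripts of other organs varied between newborn arrays. The lung secretoglobin gene Scgb3a2 read 6.97 on transgenic replicate 1 and 3.99 to 4.52 on the other arrays, and the surfactant gene Sftpc differed by -0.60 (interval -1.18 to -0.03), by -0.22 without control replicate 2 and by 0.13 on its other probe set. The albumin gene Alb read 6.60 on control replicate 1, 5.97 on transgenic replicate 2 and 4.37 to 4.64 on the rest, and 6 of 7 liver markers read lower in transgenic hearts, with a median of -0.26 that was 0.06 without control replicate 1 and -0.59 without control replicate 2. Their part in the newborn differences was not tested.

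Mycn, a transcription factor of fetal tissues, read 10.51, 8.97 and 8.03 on the transgenic arrays and 9.48 and 9.26 on the controls, in the array order of Shox2 and Sox2. The angiotensin receptor gene Agtr2 was high on the arrays that read as female, at 5.56 and 5.48, and 3.47 to 3.84 on the arrays that read as male. Across the 5 arrays the first principal component held 37.6% of the variance and placed transgenic replicate 1 and transgenic replicate 3 on opposite sides, with scores of -18.73 and 12.37, and control replicates at -2.55 and 11.12.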
